A study of Mus musculus with 4 samples.

Results

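Rhox5, Nxf7, Dazl, Ddx4, Mael, Sycp3, Stk31, Taf7l, Tex101 and Dpep3 are genes used in germ cells or gonads and kept silent by DNA methylation in most body cells, and their levels were examined in cultured mouse hair follicle stem cells (HFSCs). These 10 symbols were picked by that function out of the 24346 gene symbols in the FPKM data (a read level scaled to transcript length and to library depth), and all 10 were present. The choice was made with the differences between the groups already known, since Rhox5 and Nxf7 were among the largest increases in these libraries. Their levels are therefore given as a description, without a test. HFSCs are epithelial stem cells of the hair follicle bulge. In the study they were sorted as CD49f+ CD34+ cells from dorsal skin of 4-week-old C3H/HeN mice and grown without serum or feeder cells in M-CnT medium, a commercial medium for epithelial progenitors. Total RNA of cells passaged 10 times (10p-HFSCs) was set against that of cells passaged 48 times (48p-HFSCs), with 2 libraries in each group, to ask which genes change during long culture. Both groups had the same strain and medium and no other agent. Nothing says that the 2 libraries of a group came from separate cultures, so p-values measure only the spread between these libraries, which may be technical.

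Germ cells express a set of genes for meiosis, for transposon control by piRNAs (short RNAs that guide silencing) and for germ-cell RNA handling. Many of these genes start in CpG-rich promoters that receive DNA methylation when the embryo implants, and a repressor complex with E2F6, MGA and MAX marks many of them before the methyl groups are laid down. Rhox5 and its relatives on the X chromosome form a cluster of reproductive homeobox genes, several of which are known to respond to loss of DNA methylation in body cells.

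The 4 libraries carried the epithelial keratins Krt5 and Krt14 at an FPKM of 1217 or more, but Cd34, the sorting marker, was at 0.234 or less, and Lhx2 and Lgr5, other bulge markers, were at 0.0303 or less in each. These were the only 3 of 12 listed keratinocyte and bulge markers under 1 in every library. The other 9, with the bulge markers Krt15 and Sox9, reached 1 in 2 or more libraries. The paper, in contrast, found most cells CD34-positive by flow cytometry in both groups. Its qRT-PCR found Cd34 maintained and Lhx2 and Sox9 increased in 48p-HFSCs. Low FPKM values step in whole reads, and depth was estimated from the size of these steps. The estimate was 71.6% for the second 10p library, 82.9% for the first 48p library and 46.7% for the second 48p library, relative to the first 10p library. A normalization factor in the deposited values would also change these steps, and the paper does not state a normalization setting. The order of the libraries by depth is therefore an estimate. The deposited FPKM values summed to between 581500 and 1415000 per library, with the highest sum in the second 48p library. Of 32 housekeeping genes, 0 were listed at 0 in any library.

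The starts of the germline genes are shown for a pair with high signal in 48p-HFSCs, Rhox5 and Nxf7, and for a pair with the CpG-rich type of start, Sycp3 and Mael. Each line holds the 250 bases before the RefSeq start on GRCm38.p6, 5′ to 3′ on the gene's strand, with every CpG dinucleotide in capitals. The windows are chrX:37754358-37754607 (plus strand) for Rhox5, chrX:135598782-135599031 (minus strand) for Nxf7, chr10:88459337-88459586 (plus strand) for Sycp3 and chr1:166238745-166238994 (minus strand) for Mael.
Rhox5: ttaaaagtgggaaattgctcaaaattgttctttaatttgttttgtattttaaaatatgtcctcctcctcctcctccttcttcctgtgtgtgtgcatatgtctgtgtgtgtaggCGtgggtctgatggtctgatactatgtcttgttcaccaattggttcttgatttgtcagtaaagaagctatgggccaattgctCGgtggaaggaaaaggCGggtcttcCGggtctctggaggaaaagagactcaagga
Nxf7: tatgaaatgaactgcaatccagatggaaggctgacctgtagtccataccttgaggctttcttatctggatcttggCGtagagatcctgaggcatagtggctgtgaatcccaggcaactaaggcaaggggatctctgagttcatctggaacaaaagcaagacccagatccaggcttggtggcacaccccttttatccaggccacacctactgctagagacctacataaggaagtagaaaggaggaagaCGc
Sycp3: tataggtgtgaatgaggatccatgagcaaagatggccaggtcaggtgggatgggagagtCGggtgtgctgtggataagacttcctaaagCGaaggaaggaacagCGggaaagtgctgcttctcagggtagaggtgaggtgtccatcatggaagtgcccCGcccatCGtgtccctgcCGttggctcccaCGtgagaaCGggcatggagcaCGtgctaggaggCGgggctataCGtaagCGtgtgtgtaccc
Mael: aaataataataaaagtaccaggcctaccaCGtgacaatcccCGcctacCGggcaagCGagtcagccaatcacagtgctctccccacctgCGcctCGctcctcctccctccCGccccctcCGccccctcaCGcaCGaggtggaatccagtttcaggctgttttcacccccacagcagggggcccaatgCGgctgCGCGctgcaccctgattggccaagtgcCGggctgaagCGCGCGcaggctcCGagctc
The stretch before Rhox5 held 4 CpGs and that before Nxf7 held 2, against 12 before Sycp3 and 18 before Mael. RefSeq places the start of Rhox5 at position 37754608 of the X chromosome, whereas the GENCODE M21 gene runs from 37804842 to 37808876 on the plus strand. Which start the reads came from cannot be told from gene-level values.

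Rhox5, a homeobox transcription factor of Sertoli cells, epididymis and extraembryonic tissue, had the highest level of the group by far. Its FPKM was 0.736 and 0.685 in the 10p libraries and 1491 and 1770 in the 48p libraries. The groups did not overlap. In the deposited scaling the 48p libraries lay close together. Their summed FPKM was 666000 and 1415000, so this closeness depends on the scaling. The group means were 0.711 ± 0.036 FPKM (10p-HFSCs, SD, n = 2) and 1631 ± 197 FPKM (48p-HFSCs, SD, n = 2), 2295-fold higher, or a difference of 9.89 in log2(FPKM + 1). By that difference Rhox5 ranked 2 among all 24346 symbols, and by its level it ranked 88 and 127 in the 48p libraries. In 10p-HFSCs its values stood for an estimated 6 to 9 reads in the first library and 4 to 6 in the second, so the fold rests on few reads there. Of the 654 windows of read length in Rhox5 transcripts, 0 occurred in a transcript of another annotated gene.

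Nxf7, a member of the nuclear RNA export factor family on the X chromosome from 135579555 to 135598777 (minus strand), was listed at 0 in both 10p libraries. Its FPKM was 76.0 and 73.4 in the 48p libraries, a mean of 74.7 ± 1.79 (SD, n = 2). The 48p values were nearly equal in the deposited scaling and placed Nxf7 at rank 1070 and 1550 by level. As for Rhox5, this closeness depends on the scaling, since the summed FPKM of the 2 libraries differed. With the 10p libraries at 0 no fold is given. The log2(FPKM + 1) difference was 6.24, rank 15 of all symbols. With a pseudocount of 0.1 in place of 1 it was 9.55, so its size depends on that setting. Of its transcript windows, 0.25% also occurred in another gene, Gm15019.

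The germ-cell RNA regulators were at or near 0. Dazl, an RNA-binding translation factor of germ cells on chromosome 17, had an FPKM of 0.686 and 0.579 in 10p-HFSCs and was listed at 0 in both 48p libraries. Its groups did not overlap, with the 10p libraries higher. Ddx4, the germ-cell RNA helicase known as Vasa, was listed at 0 in both 10p libraries and at 0.0459 and 0.0407 in the 48p libraries. The Ddx4 values equal 2 reads and 1 read, so the order of the groups there has little depth behind it. Mael, a piRNA-pathway protein, was listed at 0 in all 4 libraries. The same held for Stk31, a Tudor-domain kinase-like protein of germ cells.

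Sycp3, a protein of the chromosome axes in meiosis on chromosome 10, had an FPKM of 0.638 and 0.965 in the 10p libraries, an estimated 12 and 13 reads, and was listed at 0 in both 48p libraries. Sycp3 overlaps Chpt1, a phospholipid enzyme gene on the other strand, and 33.9% of its transcript windows occurred there too. Chpt1, although widely used in cells, was listed at 0 in all 4 libraries, and whether the counting used strand is not given in the sources used here. Reads of the pair therefore cannot be told apart, and a value of 0 may in such places be a failed estimate.

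Taf7l, the germ-cell relative of a general transcription factor subunit, is the remaining X-linked gene of the 10. It was listed at 0 in the first library of each group, at 0.0788 in the second 10p library and at 0.242 in the second 48p library. The 2 groups overlapped, and the highest value came from the library with the lowest estimated depth. Tex101, a glycolipid-anchored surface protein of germ cells and sperm, was at 0.0692 in the first 48p library, equal to 1 read, and listed at 0 in the others. Dpep3, a testis dipeptidase of the membrane that binds Tex101, was at 0.0462 in the second 10p library, again 1 read, and listed at 0 elsewhere.

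**Figure D1:**
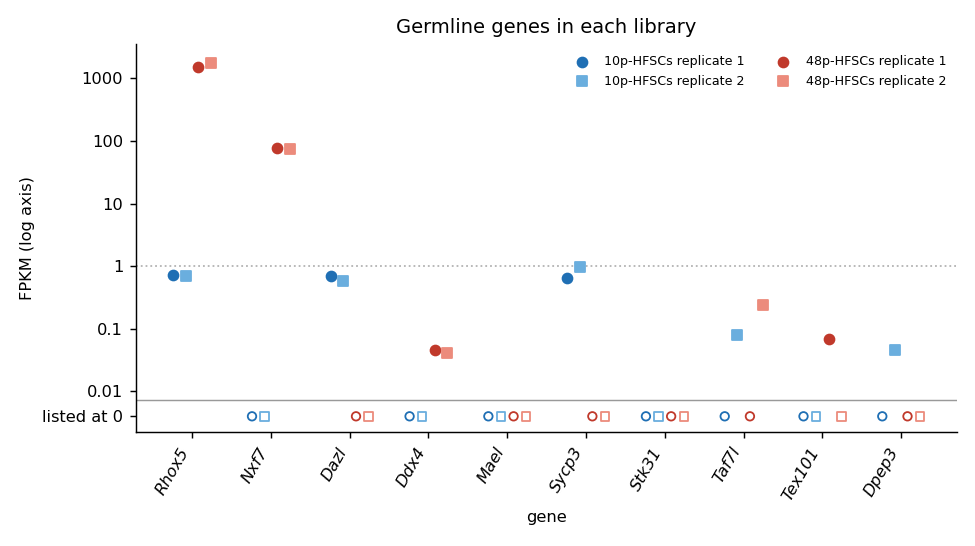
FPKM of the 10 germline genes (log axis) in each of the 4 libraries, with circles for replicate 1 and squares for replicate 2 of 10p-HFSCs (blue) and 48p-HFSCs (red), and open symbols for values listed at 0. Rhox5 and Nxf7 sit at 73.4 or more in both 48p libraries, while every value of the other 8 genes lies at 0.965 or less, under the dotted line at 1.

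Together the 8 genes other than Rhox5 and Nxf7 summed to an FPKM of 1.32 and 1.67 in the 10p libraries and 0.115 and 0.282 in the 48p libraries. Both 48p libraries lay above both 10p libraries for 3 of the 10 genes (Rhox5, Nxf7 and Ddx4), where 19.4% of all symbols did so. The 48p libraries lay below for 2 of the 10 (Dazl and Sycp3), against 20.4% of all symbols. Since this contrast was known when the genes were chosen, nothing is read from these shares. A filter on low values, which asked for 1 FPKM or more in 2 or more libraries, was passed by 2 of the 10, Rhox5 and Nxf7, each through the 48p libraries alone.

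The CpG content of the starts differed among the 10 genes. The choice of genes did not use CpG counts, but it asked for silencing by DNA methylation, which is tied to CpG-rich starts in many germline genes. A comparison of the 10 with all windows is therefore not independent of the choice. In the 300-base RefSeq promoter window (250 bases before the start and 50 after), Nxf7 held 2 CpGs and Rhox5 held 5. For Rhox5 this window, used for the motifs below too, lies at the RefSeq start, which may not be the start in use. The other 8 ranged from 12 in Dpep3 to 38 in Ddx4, with a median of 21.5. Over all 32851 RefSeq windows of this length the median was 7, and over the windows of the tested genes it was 21. In the 9 windows found for other germline genes that were called higher in 48p-HFSCs (below), the CpG count ran from 5 in Xlr3a to 20 in Mageb3 with a median of 9. The 4 called lower held 12 to 38. These sets were formed by expression, so the counts are a description only.

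**Figure D2:**
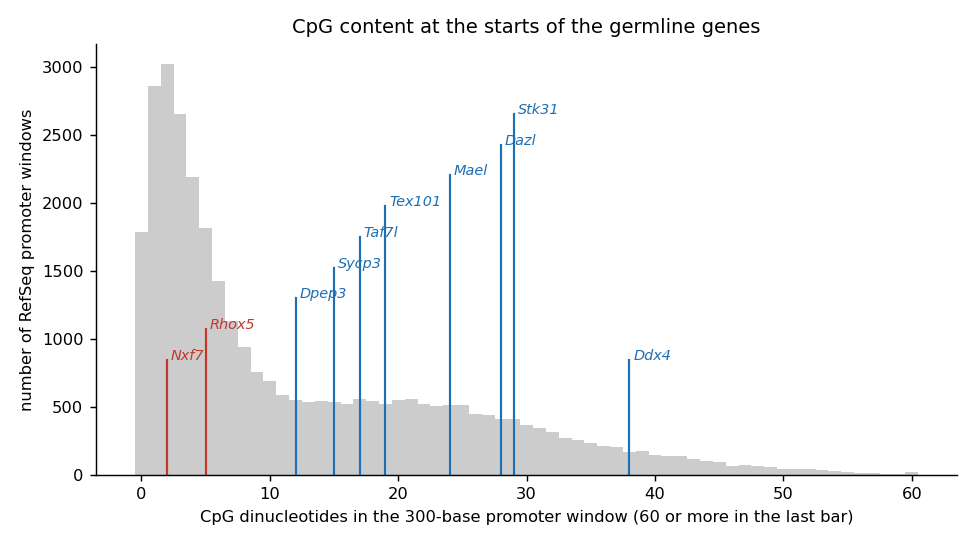
Number of RefSeq promoter windows (grey bars) by the count of CpG dinucleotides in the 300-base window, with the 10 germline genes as vertical lines whose height carries no meaning. Rhox5 and Nxf7 (red) stand at 5 and 2, and the other 8 genes (blue) at 12 or more. The Rhox5 window is at its RefSeq start, which may not be the start in use.

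A pair of motifs linked to the repression of germline genes was looked for on both strands of these windows: the E-box CACGTG, which MAX with MGA can bind, and GCGGGA, the core of E2F sites. The 2 can share at most an end base. CACGTG occurred in Ddx4, Mael, Sycp3, Stk31 and Taf7l, 5 of the 10 windows, against 7.15% of all windows. GCGGGA occurred in Ddx4, Mael and Sycp3, 3 of the 10, against 20.0% of all windows. Among the windows of tested genes the shares were 10.8% for CACGTG and 36.6% for GCGGGA, so for GCGGGA the 10 genes lay between these backgrounds. Neither string was found in the windows of Rhox5 and Nxf7, and of the 9 windows of other germline genes called higher, 0 held either one. Of the 4 windows of those called lower, 1 held CACGTG and 3 held GCGGGA. A match is a string in this window and not a measured site. The 10 were picked as silenced germline genes, a class to which these motifs are linked, so their shares are a description only.

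Rhox5 lies in a cluster of reproductive homeobox genes, of which 31 were in the data, over 916.2 kb of the X chromosome from 37213804 to 38129967. In both 10p libraries 28 of the 31 were listed at 0, and 18 were at 0 in all 4 libraries. An FPKM of 1 was reached in the 48p libraries by Rhox5 and 3 others. Rhox5 made up 93.0% and 86.7% of the summed FPKM of the cluster in the 48p libraries. Group differences for genes outside the 10 come from limma, fitted on log2(FPKM + 1) over the 11018 genes that passed the filter, with a call at an adjusted p under 0.05 and a difference of at least 1 on the log2 scale.

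Rhox2h, the nearest listed gene to the left of Rhox5, had an FPKM of 0.170 and 0.237 in the 10p libraries and 98.7 and 247.7 in the 48p libraries. It rose by a log2 difference of 7.03 (SE 0.46, limma adjusted p = 0.000916), although the 48p libraries lay well apart from each other. Rhox4d, listed at 0 in both 10p libraries, was at 8.58 and 11.1 in the 48p libraries (log2 difference 3.43, limma adjusted p = 0.00121). Rhox10 was likewise at 0 at passage 10 and reached 2.33 and 11.3 at passage 48 (2.68, limma adjusted p = 0.0294). Rhox2h, Rhox4d and Rhox10 were under 1 in both 10p libraries, so they passed the filter through the 48p libraries alone and had to differ. Of the transcript windows of Rhox4d 74.7% recur in other Rhox4 copies, and 10.0% of those of Rhox2h recur in other Rhox2 copies, so the split among copies is uncertain. Rhox6, the next listed gene on the other side of Rhox5, and Rhox9, further out, were listed at 0 in all 4 libraries. Rhox8, a Sertoli cell gene, was at 0.209 or less.

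**Figure D3:**
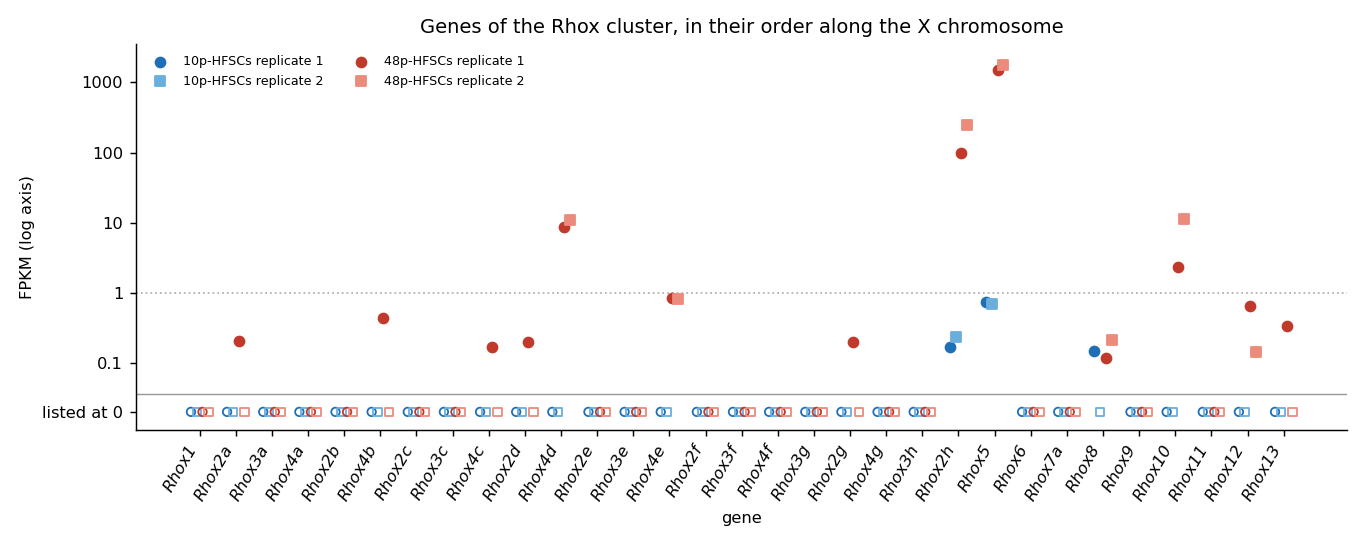
FPKM of the 31 genes of the Rhox cluster (log axis), ordered along the X chromosome, in each library, with circles for replicate 1 and squares for replicate 2 of 10p-HFSCs (blue) and 48p-HFSCs (red). Open symbols are values listed at 0; Rhox5, Rhox2h, Rhox4d and Rhox10 exceed 1 in the 48p libraries and the rest do not.

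Germline genes beyond the 10, and relatives of the 10, were examined in 171 other genes found from 176 listed by function, a list written with the results for some of them known. It also holds relatives of the 10 that are not germline genes, among them the general export genes Nxf1, Nxt1 and Nxt2 and the kidney gene Dpep1. In 145 of the 171 the FPKM was under 1 in every library, and 68 were listed at 0 in all 4. The filter left 23, and the calls after 48 passages were 11 higher and 4 lower, with a median log2 difference of 0.78. Over all 11018 genes tested, 10.8% were called higher and 9.15% lower, with a median of -0.03. Of the calls, 9 of the 11 higher genes were under 1 in both 10p libraries and 3 of the 4 lower genes were under 1 in both 48p libraries, so that they passed the filter through 1 group and had to differ. Without Nxf1, Nxt1, Nxt2 and Dpep1, left out after their values were seen, 10 of 19 tested genes were called higher and 3 lower. Rescaling each library to the same sum (TPM) moved the median difference of all genes from -0.03 to -0.56 and the split of their calls from 1189 higher and 1008 lower into 623 higher and 812 lower, and that of the other germline genes into 9 higher and 4 lower. Leaving out either 10p library left 2 calls higher (Rhox2h and Dpep1) and 1 lower (Rec114), and leaving out the second 48p library left 2 lower.

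By role, the higher calls lay mostly in X-linked families. Of 63 other germline genes on the X chromosome, 9 were tested, and 8 of these were called higher and 0 lower, where 14.2% of all 338 tested X genes were called higher. On the autosomes, 14 of 96 were tested, with 3 higher and 4 lower. Most of the 8, among them Rhox2h, Rhox4d, Rhox10, Nxf3 and Magea8, were under 1 in both 10p libraries. These passed the filter through the 48p libraries alone and had to differ, so the count is not read against the 14.2%. Whether X and autosomes differed was not tested, and the 8 include families of near-identical copies. Xlr3c, of a family related to the meiotic protein Sycp3, had an FPKM of 1.42 and 2.32 at passage 10, against 28.5 and 42.5 at passage 48 (log2 difference 3.66, limma adjusted p = 0.00171). Its relatives Xlr3a and Xlr3b rose by 2.76 and 2.57, and between 24.2% and 46.4% of the windows of these copies recur in another gene. Magea8 and the autosomal Mageb3 (chromosome 2), of the melanoma antigen family expressed in testis and tumours, rose by 1.15 and 1.71 from an FPKM of 0.237 or less to between 1.45 and 3.11, and the Magea8 call was lost after rescaling to TPM.

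Among the relatives of Nxf7, the X-linked Nxf3 rose and the general export receptor Nxf1 fell. Nxf3 was at 0.969 and 0.886 in the 10p libraries and at 6.04 and 4.56 in the 48p libraries (log2 difference 1.70, limma adjusted p = 0.00995), a call lost after rescaling to TPM and without either 10p library. Under 1 in both 10p libraries, Nxf3 passed the filter through the 48p libraries alone and had to differ. Nxf1, which carries most mRNA out of the nucleus, measured 69.4 and 61.7 at passage 10, against 22.4 and 20.5 at passage 48 (-1.57, limma adjusted p = 0.00979). The export cofactors Nxt1 and Nxt2 differed by 0.78 and 0.33 and were not called. In 48p-HFSCs the FPKM of Nxf7 exceeded that of Nxf1, a level comparison per length, in both libraries.

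Of 23 piRNA-pathway genes found, 3 were tested and 1 was called. Tdrd12, a Tudor-domain helicase of piRNA production, was at 0.310 and 0.0481 in the 10p libraries and at 6.11 and 12.3 in the 48p libraries (log2 difference 3.05, limma adjusted p = 0.00435). It passed the filter through the 48p libraries alone and had to differ. Of 37 meiosis genes found, 5 were tested, of which 0 were called higher by limma (also 0 at an unadjusted p under 0.05) and 3 lower. All 3 were under 1 in both 48p libraries, so they passed the filter through the 10p libraries alone and had to differ. Over all genes tested, 10.8% were called higher and 9.15% lower. Rec114, needed for meiotic DNA breaks, measured 23.1 and 28.6 at passage 10, against 0.0866 and 0.154 at passage 48 (-4.58, limma adjusted p = 0.000916). Rec114 shares 12.6% of its windows with Nptn, an adhesion gene that measured 49.3 and 45.2 at passage 10, against 90.5 and 147.1 at passage 48. Syce2, of the synaptonemal complex, and Zcwpw1, a reader of meiotic histone marks, fell by 1.83 and 1.06. Of 20 germline genes known to depend on promoter methylation, the class of Dazl and Mael, 0 reached the filter, with a summed FPKM between 1.36 and 1.71 per library. Of 23 genes of germ-cell identity and RNA binding, 2 were tested and neither was called.

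Of 8 genes for surface proteins related to Tex101 and Dpep3, 7 were under 1 in every library and 1 was tested and called higher. Among all genes tested 10.8% were called higher. Dpep1, the kidney relative of Dpep3, was listed at 0 in both 10p libraries but measured 59.5 and 60.1 at passage 48 (log2 difference 5.93, limma adjusted p = 0.000559). Dpep1 passed the filter through the 48p libraries alone and had to differ. Its profile over the 4 libraries was also the nearest to that of Nxf7, at a Euclidean distance of 0.32 on centred log2(FPKM + 1), followed by Ap1m2 at 0.49 and Anxa8 at 0.54. Nearest to Rhox5 were the keratins Krt18 at 1.47 and Krt17 at 2.24 and the galectin Lgals7 at 2.26. Likeness over 4 libraries in 2 groups says little beyond the size of the group difference.

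**Figure D4:**
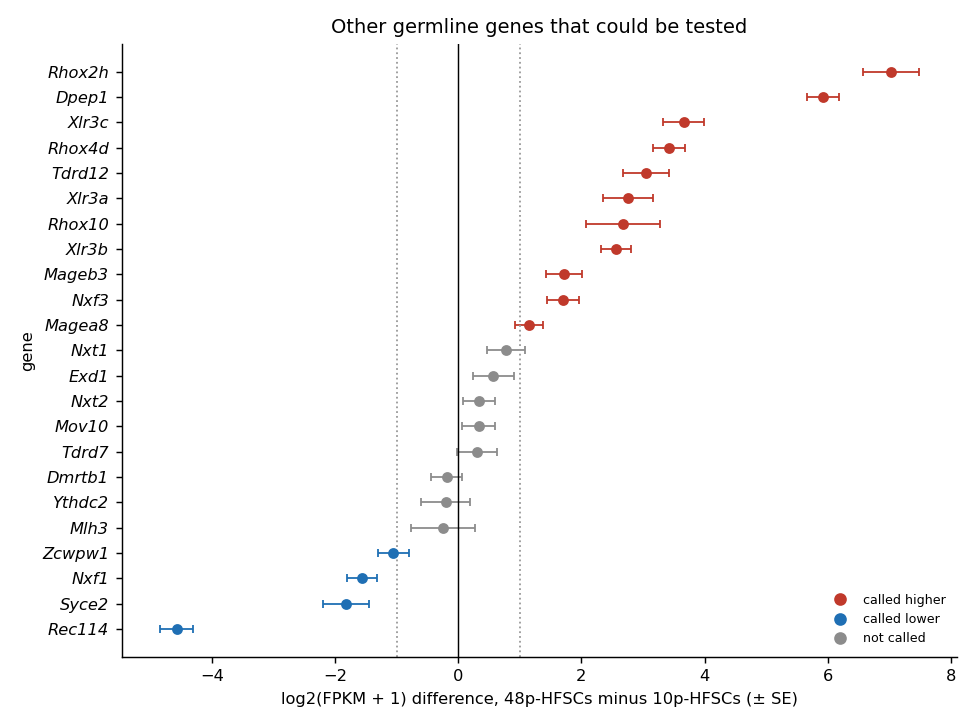
Difference in log2(FPKM + 1) between 48p- and 10p-HFSCs for the 23 other germline genes and relatives that passed the filter, with the limma standard error as bars. The 11 genes called higher (red) run from 1.15 for Magea8 to 7.03 for Rhox2h, the 4 called lower (blue) from -4.58 for Rec114 to -1.06 for Zcwpw1, and grey points were not called.

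Genes beside the 10 were compared through the 5 nearest listed genes on each side of each. Of these 100 neighbours 46 were tested, with 7 called higher and 5 lower, and 31 were listed at 0 in all libraries. Over all genes tested 10.8% were called higher and 9.15% lower, and whether the neighbours differed from these shares was not tested. Of these calls, 3 higher (Rhox2h, Tcp11x2 and Tmsb15a) and 1 lower (Rftn1) passed the filter through 1 group alone and had to differ. The median log2 difference of those tested was -0.22. Beside Rhox5, 7 of 10 neighbours were at 0 in all libraries and Rhox2h alone was tested and called. Beside Nxf7, Tcp11x2, of a family expressed in testis, was at 0.217 and 0.173 in the 10p libraries and at 21.6 and 23.2 in the 48p libraries (log2 difference 4.29, limma adjusted p = 0.000916). Tmsb15a, a thymosin that binds actin, lay further out and was at 0 in both 10p libraries and at 3.50 and 14.5 in the 48p libraries (3.06, limma adjusted p = 0.0175). The gene between Nxf7 and Tcp11x2, Prame, was at 0.0286 or less. Around Tex101, itself near 0, Ethe1, Phldb3 and Lypd3 rose by 2.46, 2.50 and 3.42, and beside Mael, Gpa33 rose by 2.24. Beside Dazl Rftn1 fell by 1.55, beside Sycp3 Dram1 and Utp20 fell by 3.28 and 1.33, and beside Dpep3 Ddx28 and Nfatc3 fell by 1.71 and 1.47. After rescaling to TPM, Gpa33, Phldb3, Utp20, Ddx28 and Nfatc3 were no longer called. Without the first 10p library, as without the second, 1 neighbour was called higher and 0 lower.

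The enzymes and repressors that keep germline genes silent were then examined together with the 3 TET demethylases, 29 genes with 27 tested. In either direction 10 of the 27 were at an unadjusted limma p under 0.05, where 4118 of all 11018 genes tested were. By limma 0 were called higher (1 at an unadjusted p under 0.05, Atf7ip) and 3 were called lower (9 at an unadjusted p under 0.05), near the 9.15% of all genes called lower, and the median log2 difference was -0.31. Dnmt3a, which lays down new DNA methylation, was at 3.14 and 2.44 in the 10p libraries and at 0.0249 and 0.0120 in the 48p libraries. It fell by 1.89 on the log2 scale (SE 0.23, limma adjusted p = 0.00456), and it passed the filter through the 10p libraries alone, so it had to differ. Tfdp1, the partner of E2F proteins, measured 135.7 and 123.7 at passage 10, against 28.7 and 13.2 at passage 48 (-2.67, limma adjusted p = 0.00814). Hells, a chromatin remodeller needed for DNA methylation, fell by 1.32 (limma adjusted p = 0.0485), a call lost under 8 of 11 alternative settings. Dnmt1, which copies methylation at replication, measured 33.4 and 21.8 at passage 10, against 20.9 and 22.4 at passage 48, and the groups overlapped (-0.31, limma adjusted p = 0.481). Its guide Uhrf1 differed by -0.73 (limma adjusted p = 0.186), and Dnmt3b, the other enzyme for new methylation, by 0.67 (limma adjusted p = 0.179).

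Of the E2F6, MGA and MAX complex, Pcgf6 differed by -1.20 (limma adjusted p = 0.0507), Max by -0.95 (limma adjusted p = 0.0438, short of the 2-fold limit), E2f6 by -0.91 and Mga by -0.75, and none of these 4 was called. The demethylase Tet3 differed by -1.47 (limma adjusted p = 0.112), Tet1 was at 0.0639 or less and Tet2 was listed at 0 throughout. Leaving out the first 10p library left 0 of the 3 lower calls, the second left 1, and leaving out the first 48p library gave 5. Of the factors reported to act at Rhox5 promoters, 4 were tested and 0 were called in either direction by limma (0 at an unadjusted p under 0.05).

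**Figure D5:**
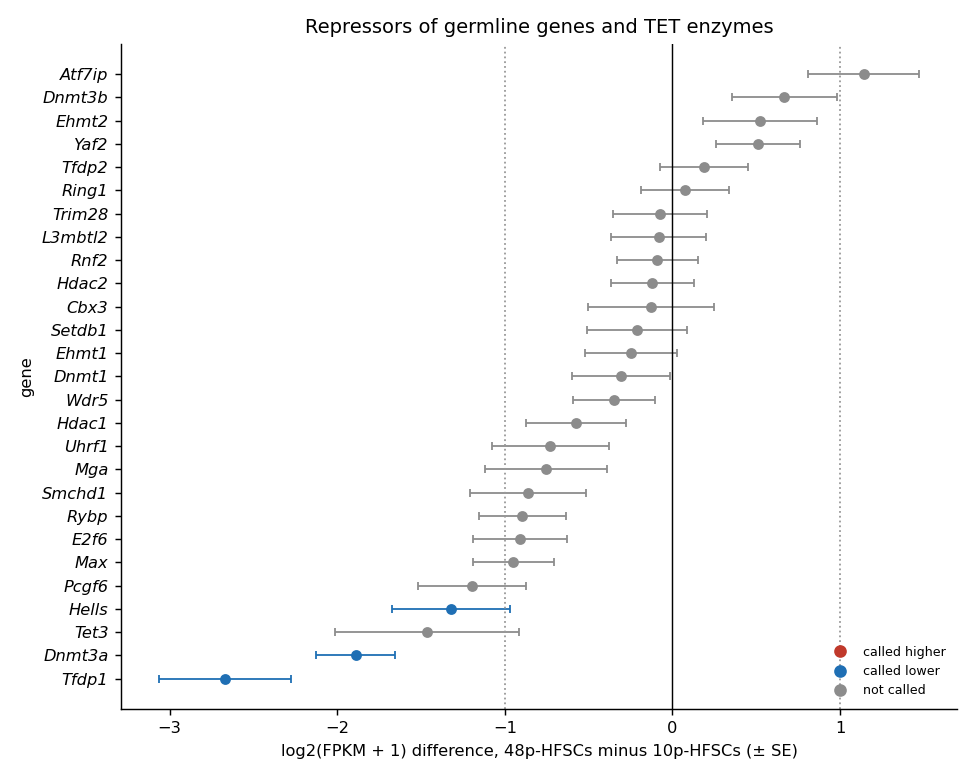
Difference in log2(FPKM + 1) between 48p- and 10p-HFSCs for the 27 repressor and TET genes that passed the filter, with the limma standard error as bars and dotted lines at the 2-fold limit. Tfdp1, Dnmt3a and Hells (blue) were called lower, at -2.67, -1.89 and -1.32, and 0 genes were called higher.

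Germ cell and trophoblast markers were under an FPKM of 1 in every library. Of 10 spermatid markers 6 were listed at 0 in all libraries and the highest value was 0.255 (Prm2), and of 10 oocyte markers 5 were at 0 and the highest was 0.213 (Gdf9). Trophoblast markers reached 0.956 at most (Syna), with 5 of 10 at 0. Markers of the gonadal support cells were not all near 0. The 8 Sertoli cell markers summed to 8.33 and 15.5 in the 10p libraries and to less in both 48p libraries (6.78 in the second), with 2 tested. Among them Wt1 was listed at 0 throughout, Gata4, at 3.95 to 6.80, was not called, and Inha fell from 3.92 and 10.7 to 0. The 7 Leydig cell markers summed to 3.62 and 9.83 in the 10p libraries and to 5.79 and 6.88 in the 48p libraries, with 2 tested (Star and Insl3) and 0 called by limma, 1 of them at an unadjusted p under 0.05. Of the pluripotent cell list, Pou5f1 was listed at 0 throughout, Dppa4 rose from 0.249 and 0 to 37.9 and 61.5 (log2 difference 5.46, limma adjusted p = 0.000916), Dppa2 rose by 1.54, and Sox2 fell from 14.3 and 13.8 to 0. Each of Inha, Dppa4, Dppa2 and Sox2 was under 1 in both libraries of a group, so it passed the filter through the other group alone and had to differ. Dppa2 and Dppa4 are neighbours that are themselves known as early embryonic genes repressed by DNA methylation.

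Other cell-type markers moved with the groups too. The summed FPKM of 7 fibroblast markers was 352.9 and 387.7 in the 10p libraries and 2.50 and 3.32 in the 48p libraries, through Vim and Col1a2, with Dazl and Sycp3 on the same side. Of these 7 markers, 5 were under 1 in every library. The sum of 5 leukocyte markers was 0.641 and 0.694 at passage 10, against 64.3 and 104.2 at passage 48, through Cd74 and Lyz2, while the defining markers Ptprc, Cd3e and Tyrobp were at 0.0711 or less. The 6 melanocyte markers summed to 4.06 and 11.9 in the 48p libraries and to less in both 10p libraries. Of these 6, 3 were under 1 in every library, and the 1 that was tested was not called. The part of these markers in the levels of Rhox5, Nxf7, Dazl and Sycp3 was not tested. In these bulk libraries, fewer cells that express a gene and less RNA of it per cell cannot be told apart.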

How the data were processed

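RNA libraries (TruSeq stranded mRNA kit) of 2 10p-HFSC and 2 48p-HFSC samples were sequenced in single-end mode. Per the labels, the submitters' processing notes name TopHat2 2.1.1, Bowtie2 2.2.8, SAMtools 0.1.18, Cuffdiff 2.2.1 and mm10, and the authors deposited 1 FPKM value per gene symbol and library. The gene annotation and the strand setting are not given in the sources used here. FPKM values are not counts, so log2(FPKM + 1) was fitted by limma (version 3.58.1, R 4.3.3, eBayes with its variance trend) over the genes that reached 1 FPKM in 2 or more libraries, with Benjamini-Hochberg adjustment over all genes tested. The script was tested on simulated data. Libraries were grouped by passage number.

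The 10 genes and all gene lists were chosen with earlier results of these data known. Named are all 10 genes, called list genes, or else the 4 with the largest difference among those reaching 1 FPKM, called neighbours, and the 3 nearest profiles. Cd34, Lhx2, Lgr5, Krt15, Sox9, Tet1, Tet2, Wt1, Pou5f1, Chpt1, Nptn, Prame, Rhox6, Rhox8, Rhox9, Prm2, Gdf9, Syna, Ptprc, Cd3e, Tyrobp and the repressors that were not called were named after their values were seen. Positions came from GENCODE M21 (GRCm38, which is mm10), found for 95.6% of symbols, and promoter windows from RefSeq on GRCm38.p6, found for all 10 genes. Windows of transcripts were matched against all other GENCODE M21 transcripts on both strands. Tables used Python 3.11.15, numpy 2.4.6 and pandas 2.3.3. Reads behind low values were estimated from the smallest FPKM steps and transcript lengths, with a tolerance of 0.03 reads.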

Additional observations from a re-analysis of the deposited data

How the results depend on the processing

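The count of the 10 germline genes with every 48p library above every 10p library, 3 to 4 when 1 library was left out, is an order of libraries that filters and pseudocounts cannot change. The size of a difference did depend on the pseudocount. At 0.1 in place of 1 it was 10.97 for Rhox5, 9.55 for Nxf7, -2.87 for Dazl and -3.15 for Sycp3. The ranks by difference were taken at a pseudocount of 1. Without the filter on low values, 637 genes were called lower in all and 2 neighbours. Under quantile normalization 1 repressor was called higher. After rescaling to TPM, 623 genes were called higher and 2 neighbours lower, and the median log2 difference of all genes tested moved from -0.03 to -0.56. Leaving out 1 library at a time (with 1 sample left in a group, its spread was taken to equal that of the other group), calls over all genes ranged from 35 to 1936 higher and from 140 to 1875 lower, other germline genes from 2 to 12 higher and from 1 to 5 lower, repressors from 0 to 1 higher and from 0 to 5 lower, and neighbours from 1 to 8 higher and from 0 to 9 lower. Apart from repressors called higher, the lowest counts came without the first or the second 10p library. Of the 29 called germline, repressor and neighbour genes, 0 changed direction under any setting. These genes were picked as called, and many passed the filter through 1 group alone. A kept direction was therefore largely fixed in advance, and nothing is read from it.

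The replicate numbers are shared by only 2 pairs and no label ties them to a culture or day. Deviations of same-numbered libraries correlated at 0.408. A fit with that number as a block gave 1613 higher and 1497 lower calls in all, 11 and 4 of the other germline genes, 1 and 5 of the repressors, and 7 and 12 of the neighbours.

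Depth limits the low values: Ddx4, Tex101 and Dpep3 rest on 1 or 2 reads per library, and the second 48p library had the lowest estimated depth.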
